A study of Saccharomyces cerevisiae with 6 samples.

Results

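The genes described here carry yeast through growth on carbon sources other than sugar. The glyoxylate cycle lets cells build 4-carbon acids from acetyl units, gluconeogenesis turns those acids into hexose phosphate, and uptake and activation proteins bring lactate, acetate and ethanol into the same routes. These genes are known to be repressed by glucose and switched on, through the kinase Snf1, by the zinc cluster activators Cat8 and Sip4 and the zinc finger activator Adr1. They were chosen by name, with earlier results of these data known: ICL1, MLS1, MDH2, PCK1, FBP1, ACS1, ADH2, JEN1, ADY2 and SFC1, which are 10 of the 6931 loci in the count table. Counts set beside the share of all loci below, for these genes and for the related lists, are thus descriptions and not tests of a blind choice. All 10 passed the filter on low counts that left 6171 loci, each has a locus and 1 exon of its own, and none overlapped another gene model.

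RNA was sequenced from 6 samples of Saccharomyces cerevisiae W303, a laboratory background, in 3 groups of 2. The wild type (WT) carried neither the plasmid nor the deletion in its labels, the PSD1 overexpression samples held a 2µ plasmid with PSD1 under the GAL promoter, and the pdr3Δ samples held that plasmid in cells that lacked PDR3. Psd1 makes phosphatidylethanolamine in mitochondria by removing the carboxyl group of phosphatidylserine, and Pdr3 is a transcription factor of drug resistance genes. PSD1 was thus driven from a multicopy plasmid by a promoter that itself answers to the carbon source. The labels give 1% yeast extract, 2% peptone and 2% raffinose as the medium and 2% galactose for 4 h for all 6 samples, but write +/- beside the induction and leave out which samples received galactose.

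The libraries held 10220872 to 12315448 counts. PSD1 rose 11-fold in PSD1 overexpression against WT, and PDR3 had 3 and 9 counts in the pdr3Δ libraries against 724 to 2283 elsewhere. GAL1, the galactokinase gene, had 484 and 230 counts in WT against 61306 to 101214 in the other groups. Expression of GAL1 and of PSD1 both separate WT from the other groups, so a difference from WT that goes with galactose induction and one that goes with PSD1 cannot be told apart. PSD1 was also 1.68-fold lower in pdr3Δ than in PSD1 overexpression. A difference between these groups that goes with the loss of PDR3 and one that goes with the lower PSD1 level thus cannot be told apart. Whether replicates were grown as separate cultures is not stated, so the spread between replicates, on which each p-value rests, may be technical. In the main fit this spread was estimated from all 6 libraries together and not for each group. The spread of the WT libraries thus also enters the p-values for pdr3Δ against PSD1 overexpression. Likewise, the spread of every group enters the p-values against WT. In bulk RNA, fewer cells expressing a gene and less RNA per cell cannot be told apart.

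The sequence upstream of these genes is shown first, because a shared element is known to tie many of them together. The carbon source response element, the known binding site of Cat8 and Sip4, was searched as CC, any base, TT, any 3 bases and CCG, on both strands, in the 1000 bases before each start codon of the R64 genome. It was found before 7 of the 10 genes, against 5.02% of 5941 upstream regions of that length. MDH2, PCK1 and SFC1 held 3 matches each, MLS1 and ACS1 held 2, and ICL1 and ADY2 held 1. The match nearest the start codon is printed for each, 5′ to 3′ on the strand of the gene, with the match in capitals (a match on the opposite strand is shown as its reverse complement).
ICL1: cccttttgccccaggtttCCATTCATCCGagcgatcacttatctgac
MLS1: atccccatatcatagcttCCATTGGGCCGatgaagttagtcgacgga
MDH2: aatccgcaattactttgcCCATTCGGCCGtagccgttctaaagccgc
PCK1: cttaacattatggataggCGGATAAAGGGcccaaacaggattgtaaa
ACS1: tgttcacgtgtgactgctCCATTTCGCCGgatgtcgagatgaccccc
ADY2: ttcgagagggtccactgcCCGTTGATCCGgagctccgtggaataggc
SFC1: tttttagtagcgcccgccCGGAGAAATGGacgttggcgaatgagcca

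These stretches lie at chrV:287284-287330 for ICL1, chrXIV:405840-405886 for MLS1, chrXV:83269-83315 for MDH2, chrXI:630772-630818 for PCK1, chrI:45365-45411 for ACS1, chrIII:133607-133653 for ADY2 and chrX:609175-609221 for SFC1. The ICL1, MDH2, ACS1 and ADY2 stretches are read from the minus strand and the others from the plus strand. The printed matches begin between 362 bases (PCK1) and 580 bases (SFC1) before the start codon.

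JEN1, ADH2 and FBP1 held no match, which says only that these letters are not in this window. Their printed stretches show shorter motifs that are common in the genome. TTGGNG, searched for Adr1 on both strands, was in 82.17% of the upstream regions and before 9 of the 10 genes, all but FBP1. CCCCNC, searched for the glucose repressor Mig1 in the same way, was in 40.83% and before 7 of the 10. ADH2 held a pair of Adr1 matches facing each other, the arrangement known as its upstream activating sequence, and JEN1 held 5 matches of each motif, 2 of its Mig1 matches overlapping each other.
ADH2: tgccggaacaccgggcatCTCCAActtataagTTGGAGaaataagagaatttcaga
JEN1: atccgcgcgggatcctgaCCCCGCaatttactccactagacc
FBP1: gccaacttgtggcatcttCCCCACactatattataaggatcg

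The ADH2 stretch lies at chrXIII:874591-874646 on the minus strand with both Adr1 matches in capitals. The JEN1 stretch at chrXI:21556-21597 on the plus strand and the FBP1 stretch at chrXII:874967-875008 on the minus strand show a Mig1 match each.

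Before any comparison, the WT libraries stood apart from each other in these genes. Levels are given as CPM, the counts scaled to an equal library size. In WT the level in replicate 2 exceeded that in replicate 1 for all 10 genes, by a median of 1.335 times and by 3.21 times for PCK1, whereas the median over all 6171 loci was 1.006. The ratio was at least 1.25 for 9 of the 10 genes and for 4.12% of all loci. Ranked by this ratio among 5685 loci with at least 50 counts in every library, PCK1 was at 3, ADY2 at 8, MLS1 at 14, ICL1 at 15 and ACS1 at 100, and only JEN1 (at 2163, ratio 1.03) lay outside the top 100. The pdr3Δ libraries differed in the same direction for all 10 genes, with a median ratio of 1.229 and a highest of 1.34 for ICL1. The PSD1 overexpression libraries differed less, with ratios from 0.931 to 1.21. Results that rest on a WT library are given with and without it. With 1 WT library left, the WT spread is taken from the other groups, so the adjusted p of those fits is not printed.

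**Figure D1:**
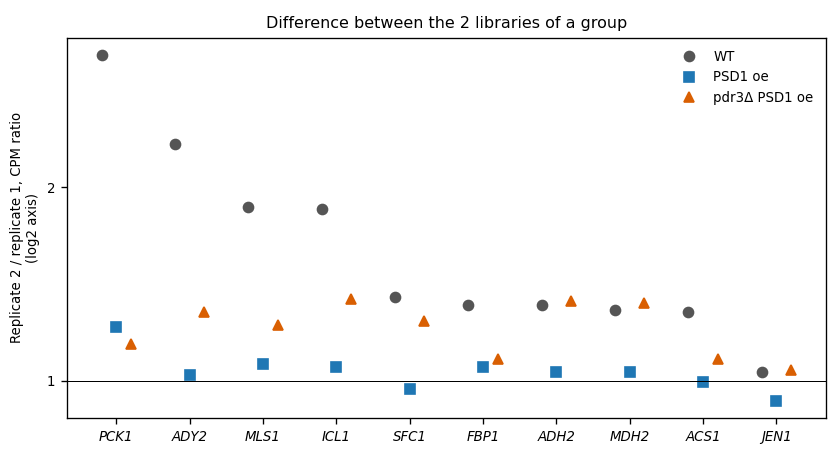
Ratio of CPM in replicate 2 to replicate 1 (log2 axis) for each gene in WT, PSD1 overexpression (PSD1 oe) and pdr3Δ with PSD1 overexpression. The WT points of PCK1, ADY2, MLS1 and ICL1 lie between 1.85 and 3.21, and the JEN1 points of all groups lie between 0.931 and 1.04.

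The first comparison asked how the genes stood in PSD1 overexpression against WT. Of the genes, 6 fell, and MDH2 alone rose. The largest falls were in the lactate transporter gene JEN1 and the ethanol-oxidizing dehydrogenase gene ADH2, followed by FBP1 of gluconeogenesis and the carrier gene SFC1, each more than 2-fold. The glyoxylate cycle genes ICL1 and MLS1 fell less, and PCK1, ACS1 and ADY2 did not pass the test. In numbers, 6 of 10 fell and 1 rose by edgeR's quasi-likelihood test at an adjusted p under 0.05 (Benjamini-Hochberg over all loci), against 27.9% of all loci lower, 27.9% higher and 55.8% called in either direction. At 2-fold or more, 4 of the 10 were lower, against 0.956% of all loci lower and 4.88% in either direction. The libraries of the groups did not overlap for 8 of the 10, close to the 77.8% of all loci. The median log2 fold change of the 10 was -0.80, beside 0.01 over all loci.

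**Figure D2:**
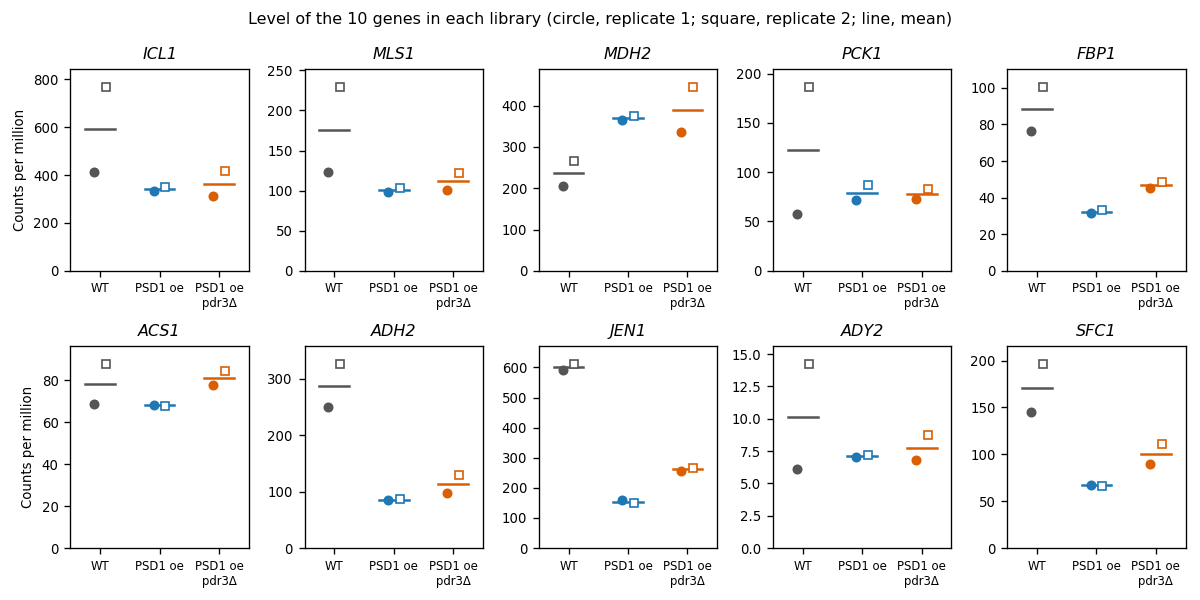
CPM of each gene in every library, by group (circle, replicate 1; square, replicate 2; line, mean of 2). JEN1, ADH2, FBP1 and SFC1 lie lower in both PSD1 overexpression groups than in WT, MDH2 lies higher, and the WT libraries are far apart for ICL1, MLS1, PCK1 and ADY2.

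Among the carriers, JEN1 (YKL217W, chromosome XI, 22234 to 24084), the proton symporter of the plasma membrane for lactate and pyruvate, changed most. It stood at 593.1 and 610.3 CPM in WT and at 159.7 and 148.7 CPM in PSD1 overexpression. Both WT libraries were far above both PSD1 overexpression libraries, and the pair within each group lay close together. The fall was 3.9-fold (log2 -1.96 ± 0.05 SE, n = 2 per group, edgeR adjusted p = 3.02e-09).

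SFC1 (YJR095W, chromosome X, 609773 to 610741) encodes the mitochondrial carrier that exchanges succinate for fumarate and so passes glyoxylate cycle succinate to the mitochondria. Its level was 144.6 and 195.9 CPM in WT and 67.74 and 65.67 CPM in PSD1 overexpression. Every WT library was above every PSD1 overexpression library, and SFC1 fell 2.55-fold (log2 -1.35 ± 0.14, edgeR adjusted p = 2.01e-05). ADY2 (YCR010C, chromosome III, 132273 to 133124), an acetate transporter of the plasma membrane, had the lowest level of the 10 genes. It stood at 6.083 and 14.2 CPM in WT and at 7.038 and 7.155 CPM in PSD1 overexpression, so the WT values lay on both sides of the others. The log2 fold change was -0.53 ± 0.33 (edgeR adjusted p = 0.198). It was -1.0 without WT replicate 1 and 0.22 without WT replicate 2.

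Entry of ethanol and acetate runs through ADH2 and ACS1. ADH2 (YMR303C, chromosome XIII, 873291 to 874337) encodes the glucose-repressed alcohol dehydrogenase that oxidizes ethanol to acetaldehyde. It fell from 249.3 and 325.7 CPM in WT to 84.28 and 86.84 CPM in PSD1 overexpression, with no overlap (3.36-fold, log2 -1.75 ± 0.14, edgeR adjusted p = 3.44e-06). ACS1 (YAL054C, chromosome I, 42881 to 45022) encodes the glucose-repressed acetyl-CoA synthetase. Its level was 68.56 and 87.5 CPM in WT against 68.1 and 67.82 CPM in PSD1 overexpression, so WT replicate 1 was almost level with the PSD1 overexpression libraries. The log2 fold change of -0.20 ± 0.10 did not pass (edgeR adjusted p = 0.116), and it was -0.36 without WT replicate 1 and -0.01 without WT replicate 2.

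ADH2 and the fermentative paralog ADH1, which makes ethanol from acetaldehyde, are alike enough that the authors' counting could split reads between them. Their coding sequences were 88.8% identical on the R64 genome, and of all 50-base windows of ADH2 14% were also found whole in ADH1. The longest run without a difference was 189 bases, positions 193 to 381 counted from the A of the ADH2 start codon, printed here because reads from inside it cannot be placed.
ADH2 and ADH1: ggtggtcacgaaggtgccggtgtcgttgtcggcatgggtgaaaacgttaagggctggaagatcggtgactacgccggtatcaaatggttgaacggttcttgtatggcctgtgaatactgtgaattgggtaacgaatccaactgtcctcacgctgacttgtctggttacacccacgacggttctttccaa

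The level of ADH1 went the other way between the same libraries, from 1944.1 and 1762.3 CPM in WT to 2881.8 and 2856.9 CPM in PSD1 overexpression (log2 0.63 ± 0.06, edgeR adjusted p = 1.62e-05). MLS1, ADY2, ACS1, ICL1 and MDH2 shared no 50-base window with their paralogs, and their longest shared runs were 9 to 20 bases.

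In gluconeogenesis, FBP1 (YLR377C, chromosome XII, 873746 to 874792) encodes fructose-1,6-bisphosphatase, which bypasses phosphofructokinase. It stood at 76.38 and 100.4 CPM in WT and at 31.41 and 33.03 CPM in PSD1 overexpression. The groups did not overlap, and FBP1 fell 2.75-fold (log2 -1.46 ± 0.12, edgeR adjusted p = 4.4e-06). PCK1 (YKR097W, chromosome XI, 631152 to 632801) encodes phosphoenolpyruvate carboxykinase, which makes phosphoenolpyruvate from oxaloacetate. Its level was 57.96 and 186.2 CPM in WT and 71.79 and 86.64 CPM in PSD1 overexpression, so that WT held both the lowest and the highest library. The log2 fold change of -0.63 ± 0.39 did not pass (edgeR adjusted p = 0.194). Its direction rested on which WT library was kept: it was -1.24 without WT replicate 1 and 0.45 without WT replicate 2.

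Of the glyoxylate cycle genes, ICL1 and MLS1 fell by similar amounts and MDH2 rose. ICL1 (YER065C, chromosome V, 285241 to 286914) encodes isocitrate lyase and MLS1 (YNL117W, chromosome XIV, 406358 to 408022) malate synthase, the enzymes found in this cycle and not in the citric acid cycle. ICL1 stood at 414.9 and 767.6 CPM in WT and at 333.2 and 350.3 CPM in PSD1 overexpression. MLS1 stood at 123.4 and 229.0 CPM in WT and at 97.74 and 103.7 CPM in PSD1 overexpression. For both genes each WT library was above each PSD1 overexpression library, but WT replicate 1 was much nearer to them than WT replicate 2.

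ICL1 fell by 0.79 ± 0.23 on the log2 scale (edgeR adjusted p = 0.014) and MLS1 by 0.81 ± 0.22 (edgeR adjusted p = 0.0111). Without WT replicate 2 the falls were 0.28 and 0.29. Without WT replicate 1 they were 1.17 and 1.19. ICL1 lost its call with DESeq2 (adjusted p = 0.0847) and with FPKM (0.0785), and so did MLS1 (0.0612 and 0.0643). Without PSD1 overexpression replicate 1 or replicate 2 the falls were 0.76 and 0.82 for ICL1 and 0.77 and 0.85 for MLS1. Neither gene kept its call in these fits, although the sizes of the falls changed little. In this comparison ICL1 kept its call in 11 and MLS1 in 12 of 17 alternative fits.

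MDH2 (YOL126C, chromosome XV, 81787 to 82920) encodes the cytosolic malate dehydrogenase, which makes oxaloacetate for the cycle and for PCK1. It rose from 206.4 and 265.9 CPM in WT to 365.9 and 375.3 CPM in PSD1 overexpression (1.57-fold, log2 0.65 ± 0.13, edgeR adjusted p = 0.00201). Both PSD1 overexpression libraries were above both WT libraries. The rise held in all 17 alternative fits, from 0.48 to 0.84 on the log2 scale.

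**Figure D3:**
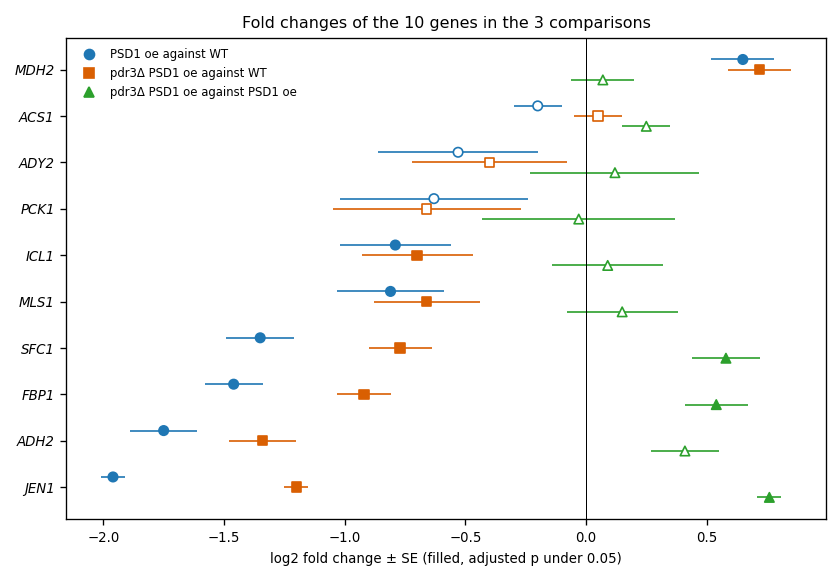
Log2 fold change ± SE of each gene in the 3 comparisons (n = 2 libraries per group), with filled symbols at an edgeR adjusted p under 0.05. MDH2 is the 1 gene to the right of 0 against WT with filled symbols, and JEN1, FBP1 and SFC1 have filled symbols for pdr3Δ against PSD1 overexpression.

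The second comparison asked which of the genes differed when PDR3 was absent and PSD1 was overexpressed. JEN1, SFC1 and FBP1, all lower in PSD1 overexpression than in WT, stood 1.46 to 1.7-fold higher in pdr3Δ. The glyoxylate cycle genes and PCK1 did not pass the test. Thus 3 of the 10 were higher and none was lower at an adjusted p under 0.05, against 11.8% of all loci higher, 9.12% lower and 20.9% in either direction. None of the 10 changed 2-fold, as against 0.421% of all loci, and the libraries did not overlap for 5 of the 10, against 63.5% of all loci. This comparison shares the PSD1 overexpression libraries with the first and is not independent of it.

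JEN1 stood at 256.6 and 267.3 CPM in pdr3Δ, above both PSD1 overexpression libraries and below both WT libraries. The rise over PSD1 overexpression was 0.76 ± 0.05 on the log2 scale (edgeR adjusted p = 2.23e-05), and it was called in all 17 alternative fits, at 0.71 to 0.82. SFC1 stood at 89.14 and 110.7 CPM (log2 0.58 ± 0.14, edgeR adjusted p = 0.0197), and FBP1 at 45.07 and 48.81 CPM (log2 0.54 ± 0.13, edgeR adjusted p = 0.0174). Both genes were again above PSD1 overexpression and below WT without overlap. Both calls were lost without PSD1 overexpression replicate 1 (adjusted p = 0.104 for SFC1 and 0.117 for FBP1), PSD1 overexpression replicate 2 (0.148 and 0.108) or pdr3Δ replicate 2 (0.101 and 0.0702), and that of SFC1 also with FPKM (0.0709).

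ADH2 reached 98.09 and 130.0 CPM in pdr3Δ, above PSD1 overexpression in both libraries, but its log2 fold change of 0.41 ± 0.14 did not pass (edgeR adjusted p = 0.0697). ACS1, at 77.87 and 84.28 CPM, was likewise above PSD1 overexpression in both libraries without passing (log2 0.25 ± 0.10, edgeR adjusted p = 0.103). Fitted on the 4 libraries of these groups alone, both were called (adjusted p = 0.0167 and 0.0126). For the others the libraries overlapped. Log2 fold changes were 0.09 ± 0.23 for ICL1, 0.15 ± 0.23 for MLS1, 0.07 ± 0.13 for MDH2, 0.12 ± 0.35 for ADY2 and -0.03 ± 0.40 for PCK1, whose adjusted p lay between 0.701 and 0.97.

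Against WT, pdr3Δ with PSD1 overexpression had 6 of the 10 genes lower and 1 higher, beside 19.5% and 19.6% of all loci (39.1% in either direction). The libraries did not overlap for 6 of the 10, against 69.4% of all loci. ADH2 and JEN1 were lower by more than 2-fold, 2 of the 10 beside 0.405% of all loci lower and 2.64% in either direction (ADH2 log2 -1.34 ± 0.14, edgeR adjusted p = 3.57e-05, and JEN1 log2 -1.20 ± 0.05, adjusted p = 1.08e-07). FBP1 was lower by 0.92 ± 0.11 and SFC1 by 0.77 ± 0.13 on the log2 scale (edgeR adjusted p = 0.000135 and 0.00113). MDH2, at 336.2 and 444.7 CPM, was higher by 0.72 ± 0.13 (edgeR adjusted p = 0.00162). ICL1 at 311.4 and 416.9 CPM and MLS1 at 100.6 and 122.3 CPM passed narrowly (log2 -0.70 ± 0.23 and -0.66 ± 0.22, edgeR adjusted p = 0.0339 and 0.0366). The ICL1 value in pdr3Δ replicate 2 overlapped WT replicate 1, and without WT replicate 2 the log2 fold changes shrank to -0.19 for ICL1 and -0.15 for MLS1. In this comparison ICL1 kept its call in 9 and MLS1 in 8 of 17 alternative fits, with losses under DESeq2 (adjusted p = 0.176 for both), FPKM (0.134 and 0.137) and a fit of the groups compared alone (0.0702 and 0.0743). PCK1, at 72.49 and 82.8 CPM, again turned on the WT library kept, with -1.26 without WT replicate 1 and 0.42 without WT replicate 2.

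Between genes, levels were compared as FPKM, which the authors scaled for gene length and depth. In WT, JEN1 (343 ± 7.86 SD), ICL1 (337 ± 143), ADH2 (287 ± 56.3) and MDH2 (245 ± 44.4) each overlapped the next in order, with SFC1 (201 ± 43.7) next after MDH2. All 5 were above MLS1 (105 ± 44.1), FBP1 (102 ± 18.9), PCK1 (78.4 ± 58.1), ACS1 (37.0 ± 6.46) and ADY2 (14.8 ± 8.47). In PSD1 overexpression the order was led by MDH2 (384 ± 7.13 FPKM), ahead of ICL1 (194 ± 7.17) without overlap. JEN1 (88.6 ± 4.56) and ADH2 (86.3 ± 2.91) then overlapped each other, and both were well below ICL1. The pdr3Δ order was the same for the first 3 places, with MDH2 at 406 ± 80.2, ICL1 at 206 ± 42.4 and JEN1 at 151 ± 4.14 FPKM. Of all counts the 10 genes together took 0.192% and 0.277% for the WT libraries, 0.129% and 0.132% for the PSD1 overexpression libraries and 0.14% and 0.174% for the pdr3Δ libraries.

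For 7 of the 10 genes, all but ICL1, JEN1 and SFC1, the FPKM ratio to a paralog or an opposing enzyme was taken within each library (no test was run on these ratios). The WT libraries had ADH2 to ADH1 ratios of 0.126 and 0.181, the PSD1 overexpression libraries 0.0287 and 0.03, and the pdr3Δ libraries 0.044 and 0.0616, and the WT mean was 5.24-fold that of PSD1 overexpression. The ratio of FBP1 to PFK1, a phosphofructokinase subunit gene, was 0.271 and 0.355 for WT, 0.0953 and 0.0976 for PSD1 overexpression, and 0.152 and 0.159 where PDR3 was absent. These 2 ratios did not overlap between any groups and were lowest in PSD1 overexpression.

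The ratio of MDH2 to MDH1, the mitochondrial malate dehydrogenase gene, went the other way. It was 0.148 and 0.197 for WT, 0.475 and 0.5 for PSD1 overexpression and 0.315 and 0.454 where PDR3 was absent, as MDH1 fell by 0.84 ± 0.06 on the log2 scale (edgeR adjusted p = 8.74e-07) while MDH2 rose. The ACS1 to ACS2 ratio stayed between 0.0565 and 0.0785 in all libraries, with ACS2, the acetyl-CoA synthetase gene used on glucose, falling by 0.36 ± 0.05 in PSD1 overexpression (edgeR adjusted p = 0.000212). The ratio of PCK1 to CDC19, the pyruvate kinase gene, was 0.0575 and 0.221 in the WT libraries and 0.0526 to 0.0832 in the others. MLS1 was 1.53 to 4.34 times its paralog DAL7, the malate synthase gene of allantoin use, and ADY2 was 0.141 to 0.366 of its paralog ATO2. For both pairs, as for PCK1, the spread between the WT libraries was the widest.

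**Figure D4:**
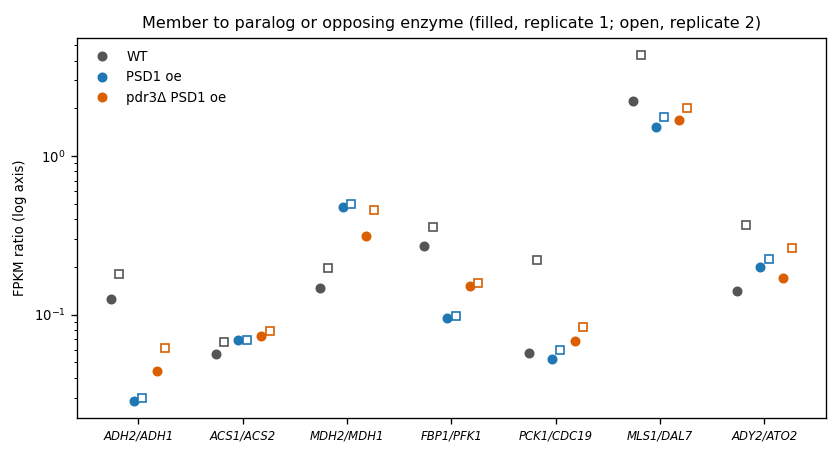
FPKM ratio (log axis) of each gene to its paralog or opposing enzyme in every library, by group (filled, replicate 1; open, replicate 2). ADH2/ADH1 and FBP1/PFK1 are lowest in PSD1 overexpression, at 0.0287 and 0.03 and at 0.0953 and 0.0976, and MDH2/MDH1 is highest there, at 0.475 and 0.5.

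Genes that work next to these were counted in 7 lists of 73 genes. Each count against WT is to be read beside the 27.9% of all loci lower, 27.9% higher and 55.8% called in either direction, and each median beside 0.01 over all loci. Of 9 genes that supply or share steps of the glyoxylate cycle, 6 were lower (27.9% of all loci) and 1 was higher (27.9%) in PSD1 overexpression against WT, with a median log2 fold change of -0.74. Those lower included the citrate synthase gene CIT1 (-1.09 ± 0.08), AGX1, whose enzyme makes glycine from glyoxylate (-1.07 ± 0.05), and the aconitase gene ACO1 (-1.03 ± 0.07), with edgeR adjusted p of 1.21e-06, 1.06e-07 and 7.36e-07. CIT2, another citrate synthase gene of the list, and MDH3 were not called (-0.1 ± 0.09 and 0.09 ± 0.04, edgeR adjusted p = 0.389 and 0.104). The 1 higher was DAL7 (0.19 ± 0.06, edgeR adjusted p = 0.0268). Of 7 lactate and glycerol genes, 5 were lower (27.9% of all loci) and 1 was higher (median -0.55). The glycerol symporter gene STL1 fell by 1.12 ± 0.06, the glycerol kinase gene GUT1 by 1.05 ± 0.12 and CYB2, the lactate dehydrogenase that acts on what JEN1 imports, by 0.55 ± 0.06 (edgeR adjusted p = 2.55e-07, 3.61e-05 and 2.39e-05). Of 10 other carboxylate carriers, 6 were lower (27.9% of all loci) and 1 was higher (median -0.29), so that 7 were called where 55.8% of all loci were, with the oxodicarboxylate carrier gene ODC1 at -1.04 ± 0.07 and the pyruvate carrier subunit gene MPC3 at -0.73 ± 0.06. Of 11 genes that handle ethanol, acetate and acetyl units, 5 were lower and 3 were higher (median -0.10), the share higher being near the 27.9% of all loci. ACH1, a mitochondrial CoA transferase that acts on acetate, fell by 1.53 ± 0.09 and the acetaldehyde dehydrogenase gene ALD4 by 0.60 ± 0.05 (edgeR adjusted p = 5.5e-07 and 6.46e-06).

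The list of opposing glycolysis and anaplerosis had 6 of 10 genes higher, against 27.9% of all loci, and 3 lower, near the 27.9% of all loci (median 0.23). PFK27 and PFK26, whose products make the fructose-2,6-bisphosphate that inhibits Fbp1 and activates phosphofructokinase, rose by 1.37 ± 0.13 and 0.48 ± 0.07 (edgeR adjusted p = 1.12e-05 and 0.000168). CDC19 rose by 0.62 ± 0.08, and PYC2, a pyruvate carboxylase gene that feeds gluconeogenesis, fell by 0.43 ± 0.05 (edgeR adjusted p = 0.000134 and 3.96e-05). In pdr3Δ against PSD1 overexpression, 5 of these 10 were lower and none was higher, beside 9.12% of all loci lower and 11.8% higher. In the same comparison 4 of the 9 glyoxylate cycle partners and 3 of the 7 lactate and glycerol genes were higher, beside 11.8% of all loci, and none was lower.

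Of 18 regulators of carbon source use, 6 were lower, 3 were higher and 9 did not pass in PSD1 overexpression against WT (median 0.01). As a group they were thus called no more often than the 55.8% of all loci. CAT8 stood at 109.7 and 95.74 CPM in WT and at 67.39 and 59.98 CPM in PSD1 overexpression (log2 -0.69 ± 0.09, edgeR adjusted p = 7.95e-05). Among its WT libraries replicate 1 was the higher, while replicate 2 was the higher for SIP4 (ratio 1.53) and for all 10 genes. A link between the levels of these regulators and those of the 10 genes was not tested. HAP4, the limiting subunit of the activator of respiratory genes, fell by 0.51 ± 0.05 and HXK2, hexokinase 2, by 0.56 ± 0.06 (edgeR adjusted p = 9.41e-06 and 1.73e-05). MIG2, a repressor related to Mig1, rose from 22.25 and 20.24 CPM to 43.29 and 43.81 CPM (log2 1.04 ± 0.09, edgeR adjusted p = 6.69e-06). In pdr3Δ MIG2 stood at 25.6 and 23.01 CPM (log2 -0.84 ± 0.09 against PSD1 overexpression, edgeR adjusted p = 0.000411).

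The GID ubiquitin ligase is known to mark Fbp1, Pck1, Icl1 and Mdh2 for destruction when glucose returns. Of its 8 listed genes, 7 were higher, against 27.9% of all loci, and none was lower in PSD1 overexpression against WT (median 0.46, beside 0.01 over all loci). VID24, which encodes the subunit Gid4 that recognizes these enzymes, rose from 69.17 and 83.66 CPM in WT to 299.2 and 248.7 CPM in PSD1 overexpression (log2 1.84 ± 0.18, edgeR adjusted p = 1.5e-05). The conjugating enzyme gene UBC8 rose by 0.56 ± 0.06, FYV10 by 0.56 ± 0.08 and GID7 by 0.53 ± 0.05 (edgeR adjusted p = 2.27e-05, 0.000171 and 1.52e-05). In pdr3Δ, VID24 stood at 146.1 and 226.7 CPM, between the other groups, and 5 of the 8 genes were lower than in PSD1 overexpression, beside 9.12% of all loci. The transcripts of the 4 target enzymes did not share a direction in the same libraries, with FBP1 and ICL1 lower, MDH2 higher and PCK1 not called. Protein levels were not measured.

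**Figure D5:**
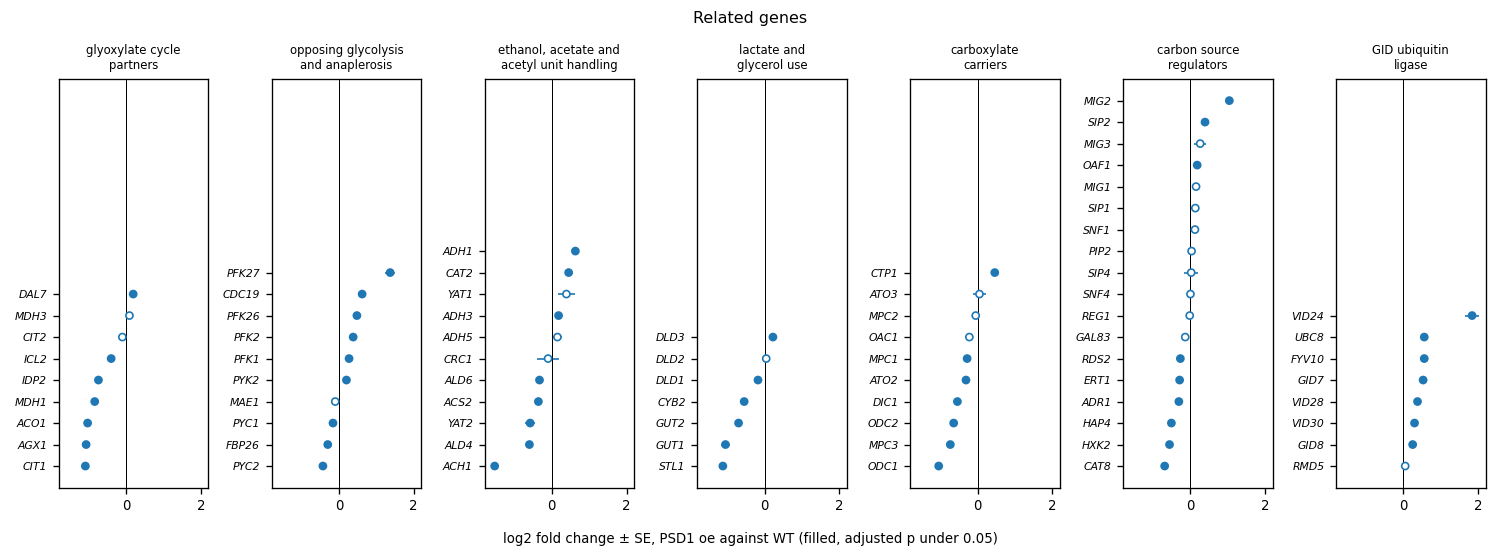
Log2 fold change ± SE in PSD1 overexpression against WT for the 73 related genes, by list, with filled points at an edgeR adjusted p under 0.05. All called GID genes lie to the right of 0, with VID24 at 1.84, and CIT1, AGX1 and ACO1 lie near -1.09 to -1.03.

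The share of called loci was also compared by the carbon source response element. Outside the 10 genes, 278 tested loci held a match in their upstream 1000 bases. In PSD1 overexpression against WT 58.3% of them were called and 26.6% were lower, beside 58.3% and 28.9% of the 5296 tested loci with an upstream window and no match. Their median log2 fold changes were 0.03 and 0.01. Among the 10 genes, the 3 without a match (JEN1, ADH2 and FBP1) had the largest falls, but SFC1, with 3 matches, fell nearly as far as FBP1 (log2 -1.35 and -1.46). The 4 with a WT ratio over 1.5 (PCK1, ADY2, MLS1 and ICL1) all held 1 or more, as did 7 of the 10 genes. MDH2, ACS1 and SFC1 also held matches and had WT ratios of 1.28 to 1.35. A role of the element was not tested. Of the 278 other loci, 3.24% had a WT ratio of at least 1.25 and 2.52% of at least 1.5, beside 2.98% and 1.06% of loci with no match, and the median WT ratios were 1.007 and 1.005.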

How the data were processed

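Per the labels' protocols, RNeasy RNA went into TruSeq libraries. The submitters' processing notes list Cufflinks and Cuffdiff (both 2.2.0), TopHat2 (2.0.9), SAMtools (0.1.18) and Bowtie2 (2.1.0) with the build sacCer3 (R64), but no order. The sources used here give neither the counting tool nor its strand setting. The deposited count table holds raw whole-number counts per locus, and a deposited FPKM table holds the same loci, per the file headers and values. Symbols, upstream sequence and paralog comparisons came from the RefSeq R64 assembly; start and end equalled the deposited models for 98.98% of shared genes and for all 10 genes described.

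The count model was edgeR 4.0.16 under R 4.3.3 (TMM scaling, expression filter by group, quasi-likelihood test over all 6 libraries, 3 residual degrees of freedom, biological coefficient of variation 4.66%), and the code was tested on simulated data. SE is the absolute log2 fold change over the square root of the F statistic. Replicates differed by more than counting noise (chi-square per degree of freedom 3.01 to 7.15). Alternatives used DESeq2 1.42.0, limma 3.58.1 (voom, and trend on log2(FPKM + 1) or log2(FPKM + 0.1)), other scalings and filters, fewer libraries, a replicate block and a 2-fold minimum.

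The genes and lists were chosen with earlier results of these data known. Named beside the 10 genes were PSD1, PDR3, GAL1, the ratio partners and up to 4 genes per list with the smallest p in PSD1 overexpression against WT. CIT2 and MDH3 were named after their values were seen. FPKM ratios and motif matches are descriptions without a test.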

Additional observations from a re-analysis of the deposited data

How the results depend on the processing

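Against WT, JEN1, ADH2, FBP1, SFC1 and MDH2 kept their direction and call in all 17 alternative fits of both comparisons. In pdr3Δ against WT, ICL1 and MLS1 also lost their calls without either PSD1 overexpression library (adjusted p = 0.07 to 0.0781) or pdr3Δ replicate 1 (0.155 and 0.144), and MLS1 with limma-voom (0.0575). The count of called genes was 7 in PSD1 overexpression against WT and ran from 5 to 10 when single libraries were left out. It was 3 in pdr3Δ against PSD1 overexpression (1 to 5) and 7 in pdr3Δ against WT (5 to 9). With a library left out, the lone sample of its group is assumed to vary like the other groups. A 2-fold minimum left 4, 0 and 2 genes, and the 73 related genes fell from 53, 29 and 39 calls to 10, 0 and 2. For pdr3Δ against PSD1 overexpression, the related genes had 7 to 31 calls with single libraries left out and 19 with either FPKM fit, and the 10 genes had 5 calls when only the groups compared were fitted. In the other comparisons the related genes had 44 to 54 and 30 to 39 calls with single libraries left out. The FBP1 to PFK1 ratio in WT was 0.0961 by CPM, which is not per length, against 0.313 by FPKM.

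Directions turned with single libraries left out. In PSD1 overexpression against WT, PCK1 ran from -1.24 to 0.45 and ADY2 from -1.0 to 0.22, and in pdr3Δ against WT PCK1 from -1.26 to 0.42, ADY2 from -0.88 to 0.35 and ACS1 from -0.11 to 0.24 (-0.0046 without pdr3Δ replicate 2), on the log2 scale. For PCK1 and ADY2 these are the values without WT replicate 1 and without WT replicate 2. In pdr3Δ against PSD1 overexpression, ICL1 ran from -0.13 to 0.29, MLS1 from -0.0014 to 0.28, MDH2 from -0.14 to 0.26 and ADY2 from -0.06 to 0.3, lowest without pdr3Δ replicate 2 and highest without pdr3Δ replicate 1, and PCK1 from -0.16 to 0.11 (0.07 without pdr3Δ replicate 1). The cause was not tested.

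The labels give the replicate numbers 1 and 2 in every group, and the sample titles are numbered through all groups of replicate 1 before replicate 2. Over all tested loci, same-numbered samples did not deviate together in all pairs of groups (correlations 0.035, 0.215 and -0.022), so the main fit did not pair them. Replicate 2 was the higher for all 10 genes in WT and in pdr3Δ and for 7 in PSD1 overexpression. Whether the 10 genes share a replicate difference was not tested. With a replicate block, 5 genes were called in pdr3Δ against PSD1 overexpression, ADH2 and ACS1 being added, and the counts against WT were 7 and 7. ADY2, with 70 to 174 counts, was the gene most limited by depth.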

Other observations

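Of the 73 related genes, 3 had a level in WT replicate 2 at least 1.5 times that in replicate 1, beside 1.6% of all tested loci. Others were lower in replicate 2, with ratios of 0.779 for GUT1, 0.823 for CDC19, 0.838 for GUT2 and 0.843 for ACH1. The genes in this paragraph were named after their values were seen. SIP4, the activator gene that Cat8 is known to switch on, stood at 23.29 and 35.67 CPM. CRC1, the mitochondrial carnitine carrier gene, stood at 20.86 and 47.75 CPM, and YAT1, a carnitine acetyltransferase gene, at 44.32 and 72.4 CPM. None of the 3 was called in PSD1 overexpression against WT.

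Among 5685 loci with at least 50 counts in every library, SPG4 had the highest ratio of WT replicate 2 to replicate 1 (5.64), and the hexose transporter gene HXT5 (2.36) and the iron uptake genes SIT1 (2.47), FRE1 (2.27) and FET3 (2.06) lay beside ADY2 (2.33) among the first 12. GAL1 differed in the other direction, with a ratio of 0.446. These genes too were named after their values were seen.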
